A study of Mus musculus with 4 samples.

Results

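The NIPA family comprises membrane proteins first named for genes of the Prader-Willi and Angelman region, and 6 mouse genes carry the name: Nipal1, Nipal2, Nipal3, Nipal4, Nipa1 and Nipa2. They were taken as every non-control probe whose RefSeq accession belongs to any of these genes, which gave 9 probes of 55681 on the array. Nipal2, Nipal3 and Nipa2 had 2 probes each, and the other 3 genes had 1 each. The family was chosen because Nipal2 stood among the features with the clearest lower signal after bile duct ligation, so the BDL against sham values of its members are given here as a description, with no test.

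The samples were mouse kidneys collected 2 weeks after bile duct ligation (BDL), which ties off the common bile duct and causes cholestasis, or after a sham operation. There were 2 kidneys per group, called biological replicates in the series' design, each hybridised alone with Cy3 dye to a 1-colour array. Strain, sex and age of the mice and any allele or agent other than the operation were not given in the sources used here. Every level below is a log2 signal with the 75th percentile of its own array set to 0, and every difference is taken as BDL minus sham. Of the spots on each array, 57.7% to 63.1% were well above background, and 0 were saturated.

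Members of the family are predicted multi-pass membrane proteins, and several carry magnesium and other divalent cations when expressed in frog oocytes. In the kidney, filtered magnesium returns to the blood mainly between the cells of the thick ascending limb, through claudin channels, while the distal convoluted tubule takes up the final part through TRPM6 channels. Human NIPA1 is mutated in a hereditary spastic paraplegia and NIPAL4, also called ichthyin, in a congenital ichthyosis. Nipal2 and Nipal3 are the less studied members.

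Nipal2 (chromosome 15, NM_145469) was 7.65-fold lower in BDL kidney by its brighter probe, A_52_P650180. The log2 signal of that probe was 1.96 and 2.05 in the sham kidneys and -0.70 and -1.16 in the BDL kidneys. Both BDL kidneys lay far below both sham kidneys, with a gap of 2.66 between the nearest pair. The group means were 2.01 ± 0.06 and -0.93 ± 0.33 (SD, n = 2), a difference of -2.94 (SE 0.25). The spread between the sham kidneys was small, and that between the BDL kidneys was the larger.

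The second Nipal2 probe, A_51_P339055, had a log2 signal of -1.84 and -1.44 in sham and of -3.83 and -3.93 in BDL kidney. It was lower on both BDL arrays as well, by -2.24 (SE 0.23) or 4.72-fold, with a gap of 1.99 between the nearest pair. Both probes were well above background on all 4 arrays. The size of the difference was not the same by both probes. They stood 0.70 apart in their difference, a gap that 6.60% of the 3836 genes with at least 2 retained probes reached or passed, where the median gap was 0.19.

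**Figure D1:**
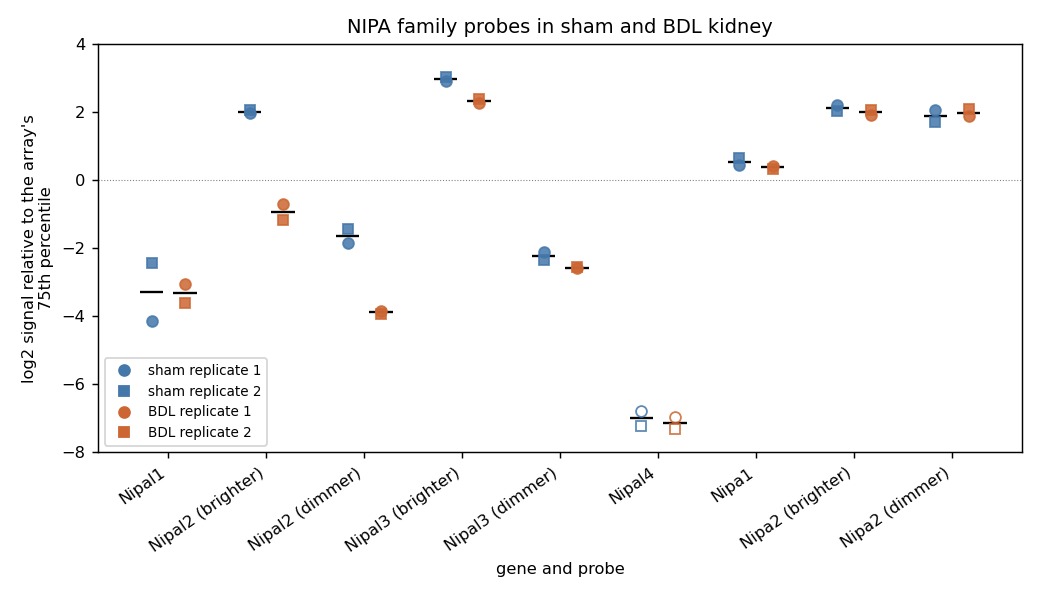
Log2 signal scaled to the 75th percentile of each array (y axis) for each probe of the 6 genes (x axis), with 1 point per kidney, sham in blue and BDL in orange, circles for replicate 1 and squares for replicate 2. Short lines are group means, open symbols mark a probe not well above background, and both Nipal2 probes sit far lower in BDL. Probes differ in how they bind, so heights are compared within a probe only.

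The difference was visible in the raw spots. For the brighter probe, the median spot signal was 2712 and 3377 intensity units in sham and 467.5 and 447.5 in BDL, over a local background of 28, 31.5, 28 and 30.0 in the same order. The dimmer probe gave 263 and 390 in sham and 109.5 and 124.5 in BDL, over a local background of 41, 38, 37 and 38.5. The background was thus nearly level across arrays while the spots were not. With the background subtracted, the mean of the sham spots was 7.04 times that of the BDL spots for the brighter probe and 3.62 times for the dimmer one.

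**Figure D2:**
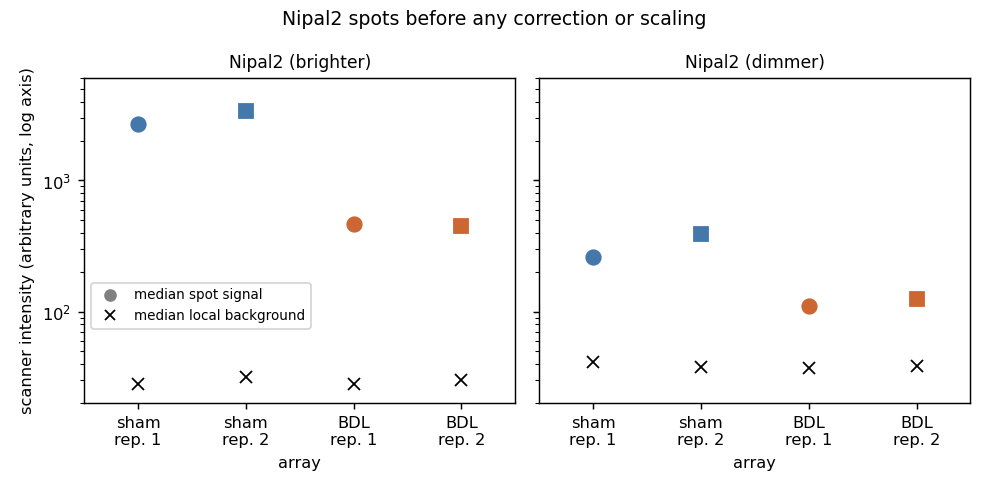
Scanner intensity on a log axis for the 2 Nipal2 probes on each of the 4 arrays, with the median spot signal as circles and squares and the median local background as crosses. Spots of the brighter probe drop from 2712 and 3377 in sham to 467.5 and 447.5 in BDL, and the crosses stay between 28 and 41 in both panels.

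Across the array, 33 of 24043 features, Nipal2 included, had a mean difference as low as or lower than that of Nipal2. Of all 32280 retained probes, 2.48% were at least 2-fold lower in BDL, and so were 2 of the 8 retained probes of the family, both of Nipal2. The rule used this contrast, and nothing is read from that count. In the limma fit over all features, 0 of 24043 (0%) passed an adjusted p of 0.05, with 1352 (5.62%) at an unadjusted p under 0.05, and the smallest adjusted p was 0.198. With 2 arrays per group, missing this threshold does not show that a gene was equal in both groups. Without sham replicate 1, which stood apart in interferon response genes, Nipal2 was -2.98 by the brighter and -2.44 by the dimmer probe.

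Nipal3 (chromosome 4, NM_028995) was also lower in both BDL kidneys, by a much smaller amount. Its brighter probe, A_55_P2109257, had a log2 signal of 2.90 and 3.02 in sham and of 2.27 and 2.39 in BDL. The groups did not overlap, and the nearest pair was 0.51 apart. The means were 2.96 ± 0.08 and 2.33 ± 0.09 (SD, n = 2), a difference of -0.63 (SE 0.20) or 1.55-fold. The spread within each group was small beside that difference.

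The dimmer Nipal3 probe, A_55_P2181176, read -2.12 and -2.35 in sham and -2.58 and -2.56 in BDL. It had the same order with a difference of -0.33 (SE 0.20). A mean difference as low as or lower than that of the brighter probe was seen for 6.45% of all retained probes, and than that of the dimmer one for 16.7%.

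Nipal1 (chromosome 5, NM_001081205), a magnesium transporter in frog oocytes, was measured by A_52_P140005 with a processed signal of 40.3 and 157.7 units in sham and of 89.8 and 77.9 in BDL. On the log2 scale these were -4.14 and -2.43 in sham and -3.04 and -3.60 in BDL. The sham kidneys enclosed both BDL kidneys and were themselves far apart. The mean difference of -0.04 (SE 0.62) was small beside the SD of 1.21 within sham. It was -0.89 without sham replicate 1 and 0.82 without sham replicate 2, -0.31 without BDL replicate 1 and 0.24 without BDL replicate 2, so that its sign turned with the kidney left out in either group. The raw spot of the first sham array was at 96 over a background of 31, and a small difference was not measurable there.

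Nipa1 and Nipa2 lie next to each other on chromosome 7, and their differences were small. Nipa1 (NM_153578), an endosomal and plasma membrane protein that in cultured cells lowers the amount of BMP receptor at the surface, had 10 spots of its probe A_51_P122035 on every array. Of the 40 spots, 1 on the array of BDL replicate 1 carried an outlier flag, at 827 units, and was left out. The mean log2 signal was 0.44 and 0.65 in sham and 0.42 and 0.33 in BDL. The BDL values lay below the sham values by as little as 0.02 at the nearest pair. The difference of -0.17 (SE 0.20) was of the order of the SD of 0.15 within sham.

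The repeated spots give the technical spread of this probe. Their SD within an array was 0.05 in sham replicate 1, 0.11 in sham replicate 2, 0.05 in BDL replicate 1 and 0.10 in BDL replicate 2 on the log2 scale. In sham replicate 2 the spots ranged from 0.35 to 0.73. Only the lowest spot lay below the mean of both sham replicate 1 and BDL replicate 1, and the next lowest was at 0.61. The other member probes had 1 spot per array, so their own spot error is not known.

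Nipa2 (NM_023647), a magnesium transporter of epithelial cells, was nearly level between the groups. Its brighter probe, A_55_P2162855, had a log2 signal of 2.20 and 2.03 in sham and of 1.92 and 2.07 in BDL. The other, A_55_P2160198, read 2.05 and 1.72 in sham and 1.90 and 2.08 in BDL. The groups overlapped by both probes. The probes differed in sign, at -0.12 (SE 0.20) and 0.10 (SE 0.23), and each difference was under its SE.

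Nipal4 (chromosome 11, NM_172524), known from the lipid barrier of the epidermis, failed the test for well above background on all 4 arrays. Its probe A_55_P2123917 gave 6.43 and 5.71 units in sham and 5.91 and 5.88 in BDL, and no fold is given. Of the epidermal barrier list (12 genes), 9 were measured, with 0 past an adjusted p of 0.05, 3 with a higher and 6 with a lower mean in BDL and a median difference of -0.16, beside -0.01 over all features. Cers3 (1.00, SE 1.74), Elovl4 (0.77, SE 0.93) and Aloxe3 (0.16, SE 0.29) were the higher ones, named after their values were seen. Elovl4 and Aloxe3 were detected above background in only 1 of 2 sham kidneys, so they were retained through the BDL kidneys alone. In that list Pnpla1, which takes part in acylceramide synthesis, was 1.88 on average in sham and 1.65 in BDL (-0.23, SE 0.19). Fa2h differed by -0.64 (SE 0.56) and Cyp4f39 by -0.82 (SE 0.73), the last detected above background in only 1 of 2 BDL kidneys. The limma adjusted p was 0.888, 0.888 and 0.892 for these 3 genes. Fa2h was 0.15 without sham replicate 2 and Cyp4f39 0.25 without BDL replicate 2, so that both turned in sign. The higher genes turned as well. Cers3 was -1.59 and Elovl4 -0.35 without BDL replicate 1, and Aloxe3 was -0.17 without sham replicate 1.

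**Figure D3:**
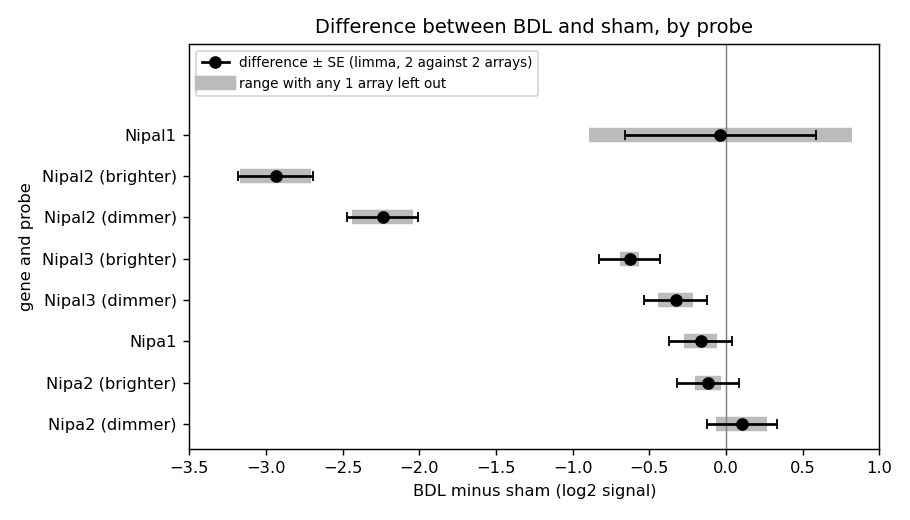
BDL minus sham in log2 signal (x axis) for the 8 probes well above background (y axis), as points with the SE from limma over 2 against 2 arrays, and grey bars for the range with any 1 array left out. Both Nipal2 probes lie at -2.94 and -2.24, the Nipal3 probes at -0.63 and -0.33, and the grey bar of Nipal1 reaches from -0.89 to 0.82.

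Among the probes well above background, 5 of 8 had both BDL arrays below both sham arrays, 0 had both above, and 3 overlapped. The first pattern was found in 18.5% of all retained probes. Again the contrast is the one the members were chosen on. Since these are whole kidneys, fewer cells that express a gene and less RNA of it per cell cannot be told apart.

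The measured genes that flank Nipal2 on chromosome 15 did not have a difference of its size. In the order of the RefSeq gene table, the 3 protein-coding genes on one side are Erich5, Rida and Pop1, and those on the other side are Kcns2, Stk3 and Osr2. Rida differed by 0.03 (SE 0.21), Pop1, the next gene to Nipal2, by 0.03 (SE 0.21) and Osr2 by -0.02 (SE 0.23). Erich5 was lower on both BDL arrays, at 0.58 and 0.01 in sham and -0.04 and -0.17 in BDL (-0.40, SE 0.27). Stk3, a kinase of the Hippo pathway, stood at 0.53 (SE 0.43). Kcns2, the next gene to Nipal2 on the other side, was not retained, and none of the other 5 passed the limma test (adjusted p of 0.877 to 0.991).

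The pair Nipa2 and Nipa1 is flanked by Cyfip1, Tubgcp5 and Siglech on one side and by Herc2, Oca2 and Gabrg3 on the other. Cyfip1, an actin regulator, differed by -0.05 (SE 0.21), Siglech by -0.26 (SE 0.19) and Gabrg3 by -0.17 (SE 0.20), and Oca2 was not retained. Siglech and Gabrg3 were lower on both BDL arrays. Tubgcp5, a part of the gamma-tubulin ring, was -3.41 and -3.51 in sham and -3.06 and -3.03 in BDL (0.41, SE 0.19, limma adjusted p = 0.872). Herc2, a ubiquitin ligase, was 2.32 and 1.96 in sham and 2.65 and 2.42 in BDL (0.40, SE 0.23, adjusted p = 0.872). Tubgcp5 and Herc2 thus had higher means in BDL, while Cyfip1, Siglech, Gabrg3, Nipa1 and the brighter Nipa2 probe had lower ones. None of these neighbours passed the test, and the members were untested.

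**Figure D4:**
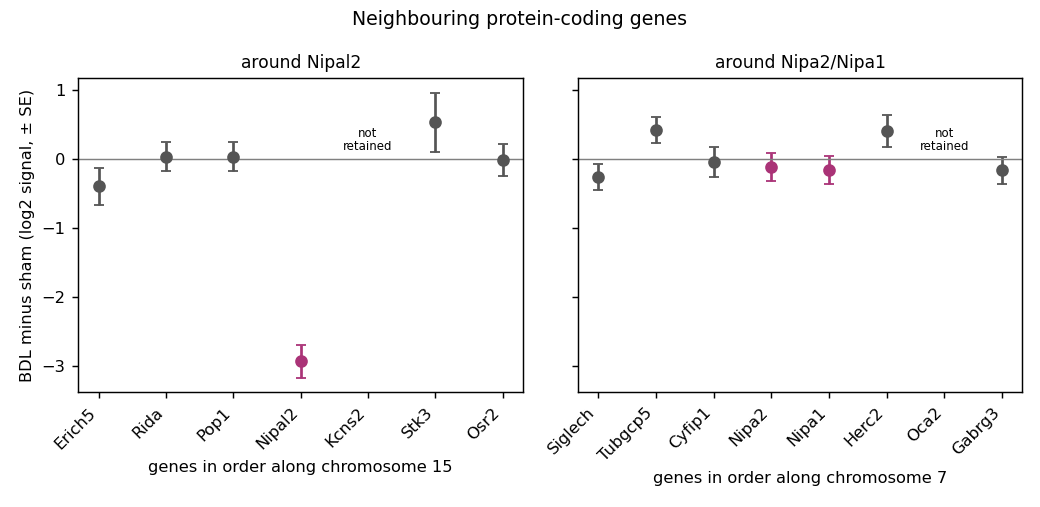
BDL minus sham in log2 signal with the SE from limma (y axis) for the genes next to Nipal2 and next to Nipa2 and Nipa1, in chromosomal order (x axis), members in purple and neighbours in grey. Nipal2 lies at -2.94 while its measured neighbours lie between -0.40 and 0.53.

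The 5 features ranked most like the brighter Nipal2 probe, by Euclidean distance between values centred over the 4 arrays, were Xlr4b, Xlr3a, Phox2a, Gata4 and Xlr3b. The distance was 0.34 for Xlr4b and 0.56 for Xlr3b, both well above background on all arrays, while the places of the other 3 rest on BDL values below detection and are not measured. Xlr4b read -0.54 and -0.64 in sham and -3.49 and -3.51 in BDL. Xlr3b read 0.49 and 0.51 in sham and -1.85 and -3.11 in BDL, where the BDL kidneys were further apart than for Nipal2. Xlr3a was lower by at least 2.07-fold, Phox2a by at least 1.29-fold and Gata4 by at least 1.75-fold, which are bounds, since both BDL spots of these genes failed the test for well above background. The Xlr genes are close copies of one another and their probes may share targets. With 4 arrays in 2 groups, this ranking mainly finds features with a difference of the same size and direction.

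Other genes of magnesium handling were read from a list of 42 genes, of which 41 were measured and Kcna1 was not. None passed an adjusted p of 0.05 in the limma fit over all features (0 of 41, smallest adjusted p = 0.812), and 3 stood under an unadjusted p of 0.05, namely Mrs2, Cldn10 and Slc12a3. The mean was higher in BDL for 16 and lower for 25. Their median difference was -0.08, beside -0.01 over all features, of which 51.4% had a lower mean in BDL. The groups did not overlap for 16 of the 41 (6 higher, 10 lower), or 39.0%, near the 36.6% of all features, of which 19.2% had both BDL arrays below both sham arrays. Without sham replicate 2 the median of the list was 0.04.

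Of the listed genes, Mrs2, the magnesium channel of the inner mitochondrial membrane, had the smallest p. It read 1.56 and 0.84 in sham and 0.18 and -0.15 in BDL, a difference of -1.19 (SE 0.32, limma adjusted p = 0.812). Both BDL kidneys were below both sham kidneys, and the difference was -0.83 without sham replicate 1 and -1.54 without sham replicate 2.

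The uptake channels had higher means in BDL, without passing the test. Trpm6, the apical magnesium channel of the distal convoluted tubule, was 1.21 and 0.25 in sham and 1.14 and 1.49 in BDL (0.59, SE 0.39, adjusted p = 0.875), with sham replicate 2 alone low. Without that kidney the difference was 0.11, and without sham replicate 1 it was 1.07. Trpm7, its widely expressed relative, read 2.88 and 2.84 in sham and 2.89 and 2.96 in BDL (0.06, SE 0.19, adjusted p = 0.964), with no overlap but almost no gap. Slc12a3, the thiazide-sensitive cotransporter of the same segment, whose loss in patients wastes magnesium, read 2.66 and 1.71 in sham and 3.23 and 3.11 in BDL (0.99, SE 0.37, limma adjusted p = 0.872), and it too was lowest in sham replicate 2, with no overlap between the groups. Without that kidney its difference was 0.52, and without sham replicate 1 it was 1.46.

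Claudins of the paracellular route differed among themselves. Cldn10, which favours sodium over magnesium in the thick ascending limb, was 5.21 and 5.35 in sham and 4.76 and 4.69 in BDL (-0.56, SE 0.19, adjusted p = 0.872). Cldn16, a part of the magnesium-permeable pore, read 0.16 and 0.53 in sham and 0.33 and 0.36 in BDL (SE of the difference 0.22), while its partner Cldn19 differed by -0.49 (SE 0.51) with groups that overlapped. Cldn3 read 1.43 and 1.86 in sham and 1.36 and 0.88 in BDL (-0.53, SE 0.28, limma adjusted p = 0.872).

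Transporters and regulators of the basolateral side had small differences. Cnnm2, linked to magnesium loss in human mutations, differed by -0.23 (SE 0.27), Slc41a1 by -0.16 (SE 0.26) and Slc41a3 by 0.07 (SE 0.20), each with overlapping groups. Egf, whose product stimulates TRPM6, was 6.97 and 7.23 in sham and 6.66 and 6.90 in BDL (-0.32, SE 0.22, limma adjusted p = 0.877), while its receptor gene Egfr was 2.69 and 2.43 against 2.79 and 3.09 (0.39, SE 0.23). The other 2 probes of Egfr gave -0.03 and 0.10. Kcnj10, a potassium channel of the distal basolateral membrane, read 4.11 and 4.12 in sham and 4.57 and 4.46 in BDL (0.40, SE 0.19, limma adjusted p = 0.872), a higher mean that did not pass the test.

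**Figure D5:**
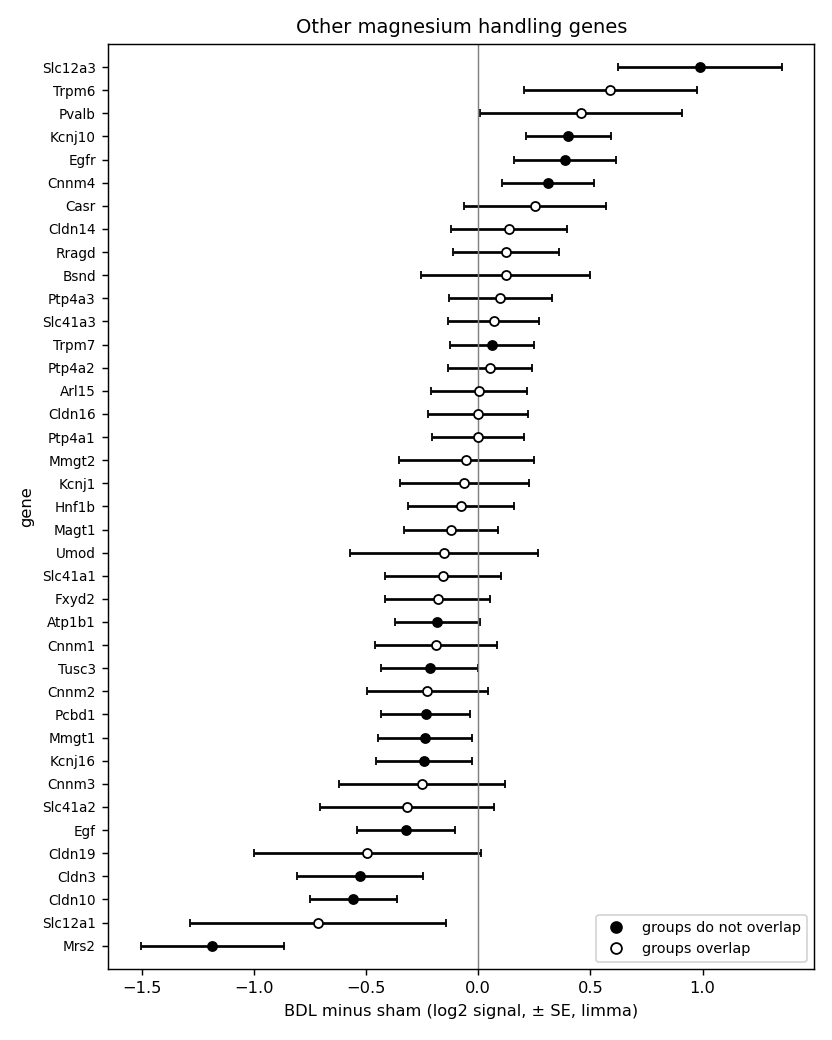
BDL minus sham in log2 signal with the SE from limma (x axis) for 39 of the 41 measured magnesium handling genes (y axis), sorted by difference, filled where the groups do not overlap (14 genes). The differences run from -1.19 for Mrs2 to 0.99 for Slc12a3, and none passes an adjusted p of 0.05.

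BMP signalling genes were read because of the link of NIPA1 to BMP receptors. Of 22 measured genes, 18 had a higher mean in BDL and 4 a lower one, where 11675 of all 24043 features had a higher mean. The median difference was 0.41, beside -0.01 over all features, and 0 passed an adjusted p of 0.05. The lower ones were Id4 (-0.41, SE 0.54), Smurf1 (-0.20, SE 0.19, lower on both BDL arrays), Bmp4 (-0.12, SE 0.20) and Bmpr1a (-0.05, SE 0.21). Smad9, with a higher mean (0.34, SE 0.42), was detected above background in only 1 of 2 sham kidneys. Smad7, a feedback inhibitor, was 0.43 and 0.59 in sham and 1.00 and 1.13 in BDL (0.56, SE 0.20), Bmp7 was 3.27 and 2.52 against 3.87 and 3.66 (0.87, SE 0.32) and Bmp6 was 1.50 and 1.04 against 1.95 and 1.86 (0.64, SE 0.24). The limma adjusted p was 0.872 for each of Smad7, Bmp7 and Bmp6. An unadjusted p under 0.05 was found for 2 of the 22, beside 5.62% of all features. Both groups were separate for these 3 genes, and for 11 of the 22 the BDL kidneys were the higher, beside 17.4% of all features. The median was 0.20 without sham replicate 1 and 0.25 without BDL replicate 1.

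The kidney label was checked against markers. All 12 proximal tubule, 9 thick ascending limb, 11 collecting duct and 6 podocyte genes listed were measured, while 3 of 7 hepatocyte genes, Apoa1, Cyp7a1 and Cyp8b1, were not retained. Of the collecting duct genes, Scnn1g was well above background on 0 sham and 2 BDL arrays. Krt20 of the urothelial list was so on 1 sham and 2 BDL arrays. Both were thus retained through the BDL kidneys alone, and both enter the sums and medians below. The summed linear level of the markers measured was lower on both BDL arrays for interferon response (25.8 and 9.76 in sham, 8.12 and 6.21 in BDL), leukocyte (49.0 and 41.9, 36.6 and 35.1) and hepatocyte genes (5.80 and 8.47, 3.70 and 3.77). Of the 8 interferon genes measured, 7 had a lower mean in BDL, while Rsad2 had a higher one (0.27, SE 0.28) with groups that overlapped. The leukocyte sum rests mainly on Csf1r, the brightest of its genes, at 5.40 and 5.27 in sham and 4.86 and 4.92 in BDL. The other 2 probes of Csf1r gave -0.15 and -0.05. Of the 8 leukocyte genes measured, 7 had a lower mean in BDL, while S100a8 was higher on both BDL arrays (2.08, SE 1.08). Among the 7, Ms4a1 was well above background on 2 sham and 0 BDL arrays, so it was retained through the sham kidneys alone. Its BDL values were below detection, and it still enters the leukocyte sum and median. The summed level was higher on both BDL arrays for podocyte (27.8 and 22.4, 35.2 and 34.3), endothelial (26.4 and 27.4, 29.6 and 28.1) and red blood cell genes (238 and 175, 602 and 336). Of the 6 endothelial genes, 5 had a higher mean in BDL, with Flt1 the brightest (0.37, SE 0.20). Kdr was lower on both BDL arrays (-0.31, SE 0.21) and 0.20 by its other probe, and the groups overlapped for Pecam1, Cdh5 and Emcn. The sums overlapped for proximal tubule (2556 to 3045 in sham, 2408 to 2631 in BDL), thick ascending limb, distal tubule and collecting duct genes, and for urothelial genes, which BDL replicate 1 carried at 94.7 against 20.4 to 30.2 elsewhere. None of the markers passed the limma test, and the median difference was -1.54 for interferon, -0.52 for leukocyte, -0.80 for hepatocyte, 0.53 for podocyte, 0.17 for endothelial, 2.04 for red blood cell, -0.13 for proximal tubule, -0.27 for thick ascending limb, 0.46 for distal tubule, 0.37 for collecting duct and 0.53 for urothelial genes. Several of these medians depended on 1 kidney. Without sham replicate 1 the median was -0.77 for interferon, -0.002 for collecting duct, -0.08 for endothelial, 0.02 for proximal tubule and -0.09 for urothelial genes, -0.60 for thick ascending limb and 1.07 for distal tubule genes. Without sham replicate 2 it was 0.18 for thick ascending limb, 0.11 for distal tubule, 0.44 for endothelial, 0.61 for collecting duct, -2.41 for interferon, -0.20 for proximal tubule and 1.34 for urothelial genes. Without BDL replicate 1 it was -1.36 for urothelial and 1.31 for red blood cell genes, and without BDL replicate 2 it was 3.30 for urothelial and -0.01 for proximal tubule genes. The part of any of these cell types in the Nipal2 and Nipal3 values was not tested.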

How the data were processed

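Spots were quantified by the authors with Agilent Feature Extraction, version 11.0.1.1 in the submitters' processing notes. The processed signal they deposited is, per the file headers, a linear intensity after background subtraction and detrending, with no scaling across arrays. Raw median intensities and spot flags, also as deposited, were used besides. The authors' deposited value table holds the same intensities divided by 1 constant per array. The log2 of the processed signal was centred on the 75th percentile of each array, without flagged outlier spots, and spots of a probe were averaged. Accessions were matched to RefSeq (GRCm38.p6, for names, chromosomes and neighbours only, as the grid lists mm9), which named 27229 of 55668 probes. Probes well above background on both arrays of a group were retained (32280), and the brightest per gene formed 24043 features.

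The test was limma 3.58.1 (R 4.3.3), two-sided, BDL against sham, with Benjamini-Hochberg adjustment over all features. SEs of members come from the fit over retained probes. The fit was tested on simulated data. An "at least" fold sets the sham mean against, per BDL array, the higher of the probe and the lowest signal well above background. With 2 arrays per group, their number limits precision. Members and gene lists were chosen with earlier results of these data known. Named were all member probes, list genes by smallest p or role, 3 neighbours per side and 5 features most like Nipal2, though not every gene this takes is reported here. All arrays shared 1 slide and scan time. The labels speak of paired RNAs, but whether same-numbered arrays are pairs was not given. The groups' differences of replicate 1 and replicate 2 had r = 0.06 over features, which cannot decide it.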

Additional observations from a re-analysis of the deposited data

How the results depend on the processing

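The count of features past an adjusted p of 0.05 stayed 0 under all alternatives run, among them normexp, quantile and median scaling, the authors' table, both filters, array weights, all retained probes and each array left out, and so did the count of magnesium handling genes. With the replicate number as a block, 0 features passed and the members' differences were equal to those without it by design (Nipal2 -2.94, Nipal3 -0.63, Nipa1 -0.17, Nipa2 -0.12, Nipal1 -0.04). By the other probe, Nipal2 was -2.24, Nipal3 -0.33 and Nipa2 0.10, and the cause was not tested. With normexp on the median signal (offset 50), which was planned, the brighter probes gave -2.78 for Nipal2, -0.61 for Nipal3 and -0.10 for Nipa2. The same setting on the other probes, a combination chosen after seeing the data, gave -1.47, -0.19 and 0.079, and the cause was not tested. With 1 array left out, Nipal2 ranged from -3.17 to -2.70, Nipal3 from -0.69 to -0.56, Nipa1 from -0.27 to -0.06, Nipa2 from -0.20 to -0.04 and Nipal1 from -0.89 to 0.82. The files have no mean spot signal, so normexp used the median signal. A slide or scan block was not run, as all arrays share both. Nipal4 was too dim for any difference, and Nipal1 lay near the limit of detection on 1 sham array.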
